A study of Mus musculus with 15 samples.

Results

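The interferon-induced GTPases described here are 10 genes, namely Irgm1, Irgm2, Igtp, Iigp1, Ifi47, Tgtp1, Tgtp2, Gbp2, Gbp3 and Gbp7, out of 55450 genes counted in the gastrocnemius of 15 mice. They were chosen by name as members of the immunity-related GTPase (IRG) and guanylate-binding protein (GBP) families, with measured values of these mice in view, since the study called Ifi47, Iigp1 and Gbp7 between High Run and High Control mice. All 10 matched 1 counted gene each and passed the filter on low counts, as did 16920 genes in all. The mice were female C57BL/6JN animals older than 17 months. Low mice, labelled robust, had at most 1 positive frailty marker, and High mice, labelled frail, had at least 2. Run mice were taken 24 h after the last of 2 downhill bouts on a treadmill with a decline of 22 degrees, at a speed of 13 m/min, and Control mice stayed sedentary. There were 4 Low Control mice (D8, D9, D11 and D98), 4 Low Run mice (D57, D61, D66 and D68), 3 High Control mice (D23, D25 and D67) and 4 High Run mice (D49, D52, D53 and D62), with 1 library per mouse. RNA came from a portion of the whole powdered muscle, so each value is an average over myofibres, vessels and resident immune cells, and fewer cells of a type and less RNA per cell cannot be told apart. Total counts ranged from 19395125 to 30699216 per mouse. The 8 myofibre marker genes were abundant in every library, with a summed level of 118167 to 184874 CPM, the usual depth-scaled count, here with library sizes adjusted by the TMM method.

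IRG and GBP proteins are GTPases that cells make in response to interferons, most strongly to interferon gamma, and they act against bacteria and parasites that live inside vacuoles. Irgm1, Irgm2 and Igtp belong to the regulatory IRG proteins, which sit on the cell's own membranes and keep the effector IRG proteins inactive there. Iigp1, Ifi47, Tgtp1 and Tgtp2 are effector IRG genes, whose proteins load onto the vacuole of the microbe. The GBP genes encode larger GTPases that gather on such vacuoles and on free bacteria and can promote inflammasome activation. Interferon gamma signals through its receptor and the kinases Jak1 and Jak2 and acts on promoters with a GAS element, and type I interferons act on promoters with an interferon-stimulated response element (ISRE).

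The 100 bases before the transcription start of 7 members are printed because 4 of them share the same pair of elements. Of the other 3, Gbp7 holds both elements in another arrangement, and Irgm1 and Gbp2 hold an ISRE core with no GAS match. Sequences are from RefSeq on build GRCm38.p6, 5′ to 3′ on the strand of the gene, and capitals mark each match to an ISRE core (GAAANNGAAA on either strand) or to a GAS element (TTCNNNGAA, which reads the same on both strands). The 2 motifs do not overlap each other in these windows.
Tgtp1: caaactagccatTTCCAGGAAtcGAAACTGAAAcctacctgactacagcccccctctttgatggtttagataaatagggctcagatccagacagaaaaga
Tgtp2: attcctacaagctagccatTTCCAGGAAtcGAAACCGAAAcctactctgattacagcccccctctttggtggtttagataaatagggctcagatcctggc
Igtp: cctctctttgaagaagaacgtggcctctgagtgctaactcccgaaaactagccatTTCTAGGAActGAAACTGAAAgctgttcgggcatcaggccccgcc
Irgm2: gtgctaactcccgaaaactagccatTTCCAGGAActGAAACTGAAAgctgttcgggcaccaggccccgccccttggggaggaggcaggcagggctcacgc
Irgm1: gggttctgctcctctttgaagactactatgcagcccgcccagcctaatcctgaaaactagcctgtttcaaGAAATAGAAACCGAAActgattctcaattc
Gbp2: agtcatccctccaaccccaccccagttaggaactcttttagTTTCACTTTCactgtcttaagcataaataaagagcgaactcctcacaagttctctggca
Gbp7: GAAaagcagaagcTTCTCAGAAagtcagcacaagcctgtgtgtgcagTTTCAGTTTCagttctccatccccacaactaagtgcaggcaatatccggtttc

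These windows lie at chr11:48992247-48992346 (minus strand) for Tgtp1, chr11:49064213-49064312 (minus) for Tgtp2, chr11:58199456-58199555 (plus) for Igtp, chr11:58214877-58214976 (plus) for Irgm2, chr11:48871421-48871520 (minus) for Irgm1, chr3:142620563-142620662 (plus) for Gbp2 and chr3:142530236-142530335 (plus) for Gbp7. In Tgtp1, Tgtp2, Igtp and Irgm2 the GAS match was followed by the ISRE core after 2 bases. In Irgm1, 2 overlapping ISRE core matches began 30 and 24 bases before the start, and in Gbp2 a single reverse-strand match began 59 bases before it. Gbp7 held an ISRE core match 53 bases before the start and GAS matches 106 and 87 bases before it, the first of which is cut by the printed window. Over the 250 bases before the start, 8 of the 9 members with a promoter searched held an ISRE core. A GAS match was held by 5 of the 9, each with an ISRE core in the same window. Of all 32851 promoters, 2.98% held an ISRE core, 7.02% a GAS match and 0.332% both. The member with neither motif in this window was Ifi47, and a second start of Gbp3 also had neither. Tgtp1 and Tgtp2, like Igtp and Irgm2, carry near-identical sequence around the motifs, so their matches are not separate cases. These matches are letters in a sequence, and no binding was measured.

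Outside the promoters, the genome position of the members bears on how their reads could be assigned. On GRCm38 in GENCODE M21, Irgm1 (chr11:48861968-48871683), Tgtp1 (chr11:48985327-48994172), Tgtp2 (chr11:49057194-49064206) and Ifi47 (chr11:49076587-49096974) lie close together, and Igtp (chr11:58199556-58207591) and Irgm2 (chr11:58199618-58222782) form a second pair on the same chromosome. Gbp7 (chr3:142530342-142550149), Gbp3 (chr3:142560026-142573209) and Gbp2 (chr3:142620602-142638008) are neighbours on chromosome 3. Igtp and Irgm2 share 162 exon bases on the same strand, which is 8.01% of the exon length of Igtp. Tgtp1 and Tgtp2 are near-identical copies, and only 18.8% and 13.4% of the 50-base words in their transcripts occurred in no other gene. Only uniquely aligned read pairs were counted, so the values of Tgtp1 and Tgtp2 are uncertain, and how many of their pairs were left out was not tested. For the other members this share was between 87.3% (Gbp7) and 99.6% (Irgm1).

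Per kilobase of exon, the median level over the 15 mice was 8.88 CPM per kilobase for Igtp, 5.90 for Irgm2 and 4.05 for Irgm1. Gbp2 followed at 3.58, Gbp3 at 2.24, Iigp1 at 2.00, Gbp7 at 1.61 and Ifi47 at 1.03, with Tgtp2 at 0.434 and Tgtp1 at 0.213. The place of the Tgtp pair in this order is uncertain, since its levels are per full exon length while little of its sequence is unique. The ranges over mice of all 9 pairs of neighbours in this order overlapped. Within a mouse the order was steadier, and Igtp stood above Irgm2, Gbp2 above Gbp3 and Gbp7 above Ifi47 in 15 of 15 mice. Irgm1 stood above Gbp2 in only 6 of 15 mice and Iigp1 above Gbp7 in 11 of 15.

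The members varied far more between mice of a group than most genes did. The spread between mice relative to a gene's mean, expressed as edgeR's biological coefficient of variation, had a median of 0.504 over the 10 members and of 0.231 over all genes tested. It was lowest for Irgm1 (0.277), where 64.9% of the tested genes varied less. It was highest for Tgtp1 (0.790), and 0.417 (Ifi47) or more for every member other than Irgm1. The spread was led by a pair of Low mice. Low Run mouse D57 held the highest value of all 15 mice for 10 of the 10 members, with a median of 4.604 times the level of the middle mouse. Low Control mouse D11, which had not run, was the highest of its group for all 10 and stood at a median of 2.60 times that level.

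**Figure D1:**
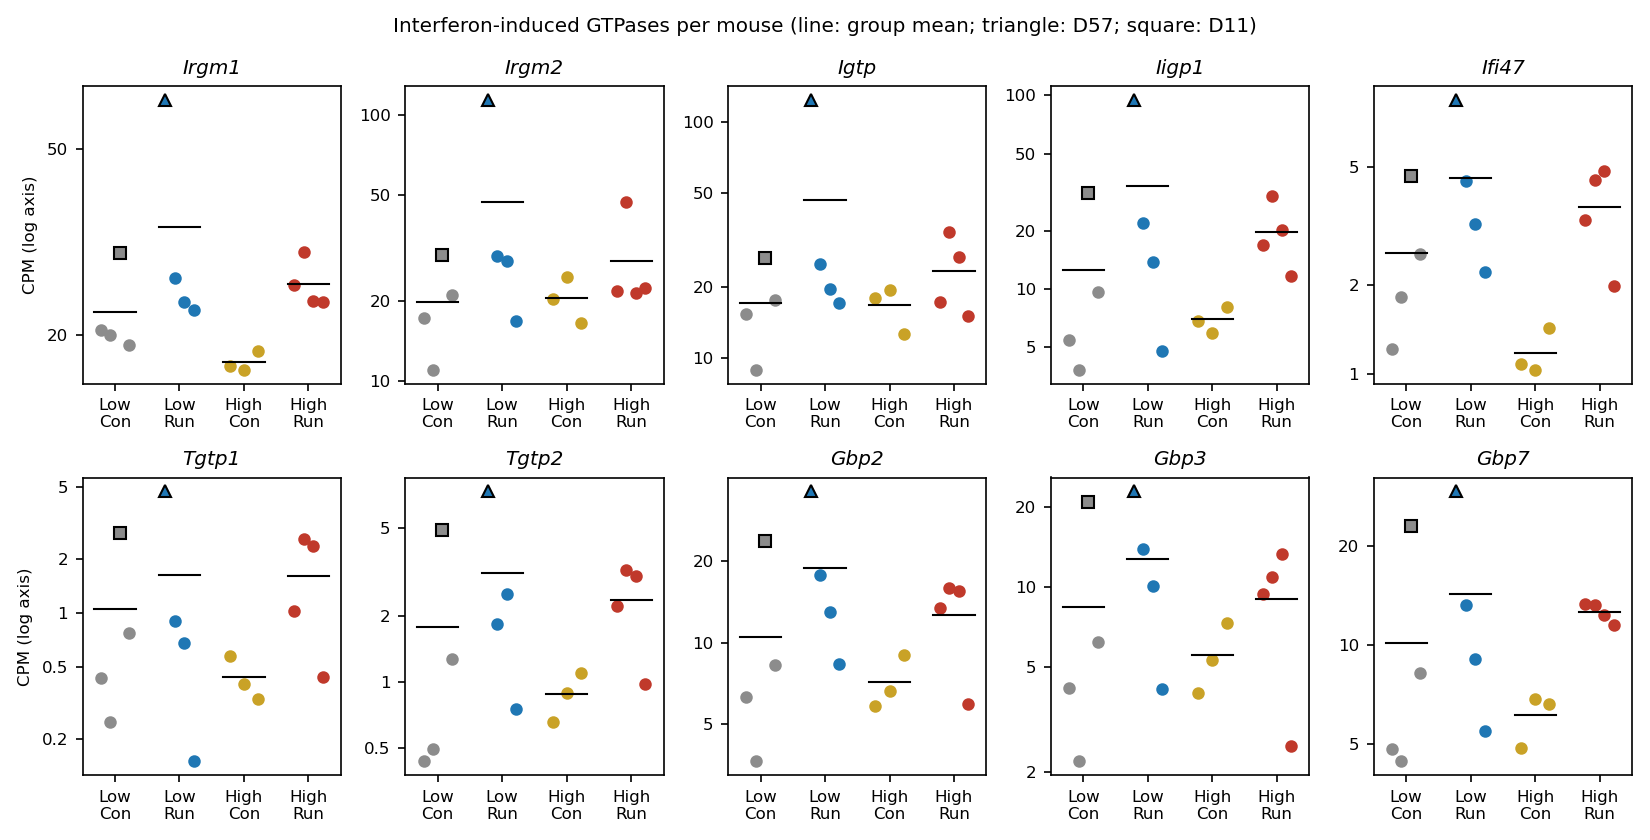
Level of each of the 10 GTPase genes in CPM (log axis) in every mouse of the 4 groups; points are mice, lines are group means, the triangle is Low Run mouse D57 and the square Low Control mouse D11. D57 is the highest point in all 10 panels, and the 4 High Run points lie above the 3 High Control points for Irgm1, Iigp1, Ifi47 and Gbp7.

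The first comparison, Low Run against Low Control, asks how the muscle of mice with few frailty markers responded to running. Means were higher in Low Run mice for all 10 members, by a median log2 fold change of 0.83 compared with 0.02 over all genes tested, but at an FDR of 0.1 the quasi-likelihood test of edgeR called 0 of the 10. That threshold was passed by 0% of the 16920 genes in this comparison. The groups overlapped for all 10 members, whereas the lowest Low Run mouse stood above the highest Low Control mouse for 3.35% of all genes. At an unadjusted p under 0.05, 3 members were higher (Igtp, Irgm2 and Irgm1), against 5.92% of all genes. The same 3 had an unadjusted p under 0.05 in DESeq2's Wald test, against 3.22% of all genes in the upward direction. In voom with sample quality weights 0 members had one, against 4.39% of all genes. Neither tool called a member at an FDR of 0.1.

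With all mice, the regulatory IRG genes gave the smallest p-values among the members, an order that changed when mice were left out. Igtp stood at 15.3, 8.86, 26.4 and 17.5 CPM in Low Control mice D8, D9, D11 and D98, and at 125, 25.0, 19.6 and 17.1 CPM in Low Run mice D57, D61, D66 and D68. A single Low Run mouse was thus far above the rest, and the other 3 lay within the Low Control range. The log2 fold change of Igtp was 1.46 ± 0.54 (SE, n = 4 and 4), with an adjusted p of 0.358 in edgeR. Irgm2 had 17.3, 11.0, 29.7 and 21.04 CPM in Low Control mice and 114, 29.4, 28.3 and 16.7 CPM in Low Run mice, in the same order. Its log2 fold change was 1.26 ± 0.49, again with an edgeR adjusted p of 0.358. Irgm1, whose product has been tied to autophagy and mitochondrial upkeep, was the steadiest member, at 20.6, 20.04, 30.0 and 19.1 CPM in Low Control and 63.9, 26.5, 23.5 and 22.7 CPM in Low Run mice. All 4 Low Run values of Irgm1 were above 3 of the 4 Low Control values, and D11 was the exception. The log2 fold change was 0.61 ± 0.28 and the edgeR adjusted p 0.364.

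Among the effector IRG genes, Iigp1, whose product loads onto the vacuole of Toxoplasma, stood at 5.47, 3.81, 31.3 and 9.69 CPM in Low Control mice and at 95.1, 21.9, 13.8 and 4.76 CPM in Low Run mice. Low Run mouse D68 was thus below 3 of the 4 Low Control mice, although the log2 fold change of the means was 1.43 ± 0.73 (edgeR adjusted p = 0.387). Ifi47 was at 1.22, 1.82, 4.64 and 2.55 CPM in Low Control and at 8.41, 4.47, 3.20 and 2.21 CPM in Low Run mice, a log2 fold change of 0.84 ± 0.43 (edgeR adjusted p = 0.387). For the Tgtp pair the log2 fold changes were 0.62 ± 0.84 for Tgtp1 and 0.82 ± 0.71 for Tgtp2, with edgeR adjusted p-values of 0.732 and 0.576. These rest on few reads, as Tgtp1 had between 3 and 113 counts in a mouse and Tgtp2 between 10 and 176.

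Among the GBP genes, Gbp7 had 4.82, 4.43, 23 and 8.22 CPM in Low Control mice and 29.3, 13.2, 9.04 and 5.46 CPM in Low Run mice. The second highest of these 8 values was thus that of a mouse that had not run. The log2 fold changes were 0.50 ± 0.49 for Gbp7, 0.85 ± 0.51 for Gbp2 and 0.61 ± 0.62 for Gbp3, with edgeR adjusted p-values of 0.629, 0.441 and 0.638. Gbp2 ranged from 3.64 to 23.8 CPM in Low Control (median 7.30) and from 8.37 to 36.4 CPM in Low Run mice (median 15.4). Gbp3 ranged from 2.19 to 20.96 CPM (median 5.19) and from 4.11 to 23.04 CPM (median 12.0). D11 was the upper end of both Low Control ranges and D57 of both Low Run ranges.

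**Figure D2:**
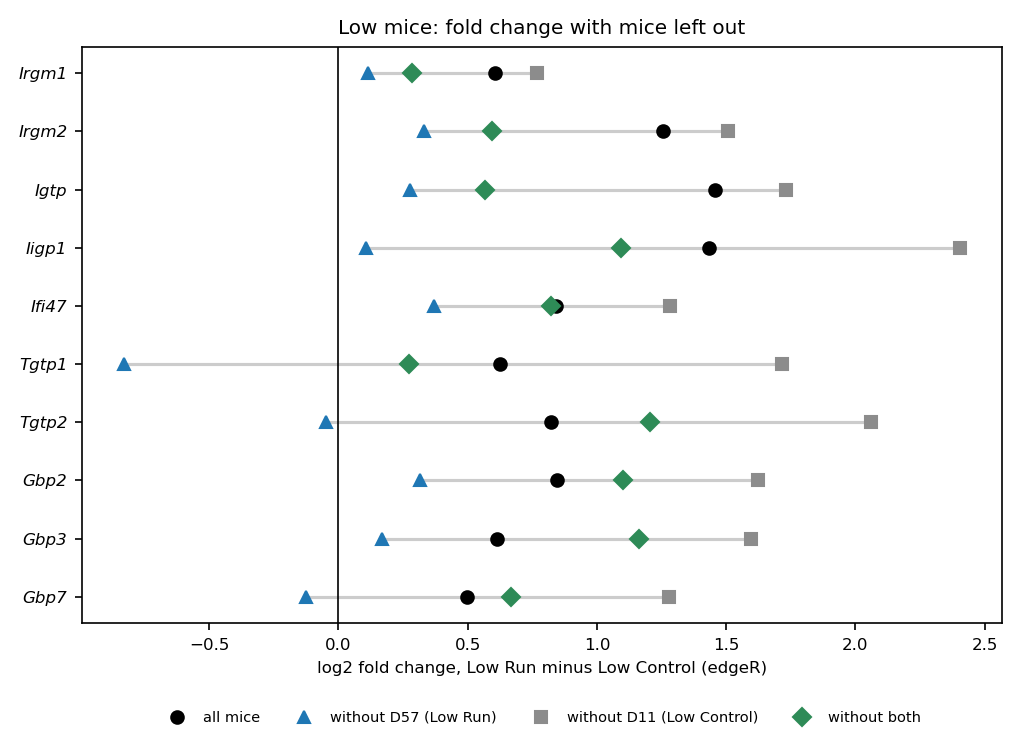
Log2 fold change of each GTPase gene in Low Run against Low Control mice with all mice, without Low Run mouse D57, without Low Control mouse D11 and without both. Leaving out D57 moves every gene to the left and Tgtp1, Tgtp2 and Gbp7 below 0, and leaving out D11 moves every gene to the right.

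The size of the difference in Low mice depended on these 2 animals. Without D57 the median log2 fold change of the members was 0.14, and Tgtp1, Tgtp2 and Gbp7 had values of -0.83, -0.05 and -0.13. Without D11 it was 1.61, and 9 of the 10 members had an unadjusted p under 0.05, as 6.35% of all genes tested then did in the upward direction. With both left out the median was 0.74 and all 10 log2 fold changes were above 0, from 0.27 for Tgtp1 to 1.20 for Tgtp2, an alternative added after the values had been seen. In each of these 3 fits, 0 members passed an FDR of 0.1. Without D57, 0 members had an unadjusted p under 0.05 (edgeR), against 3.8% of all genes in the upward direction. Without both there were 5, against 4.88% of all genes. These 5 were Ifi47, Iigp1, Tgtp2, Gbp2 and Gbp7, and no regulatory IRG gene was among them. Without Low Control mouse D9 there were 0, against 2.63% of all genes.

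D57 and D11 did not share one profile across the families. In D57, Igtp stood at 4.73 times, Irgm2 at 3.85 times, Iigp1 at 3.04 times and Irgm1 at 2.13 times the level in D11, and Ifi47, Tgtp1 and Tgtp2 at 1.81, 1.70 and 1.51 times. The GBP genes were close to each other in the 2 mice, with ratios of 1.10 for Gbp3, 1.27 for Gbp7 and 1.53 for Gbp2. Compared with the mean of the other Low Control mice, D11 had 5.00 times the level of Gbp3 and 4.95 times that of Iigp1, but 1.90 times that of Igtp and 1.51 times that of Irgm1. Compared with the other Low Run mice, D57 had 8.22 times the level of Tgtp1, 7.05 times that of Iigp1, 6.06 times that of Igtp, 2.64 times that of Irgm1 and 2.46 times that of Gbp3. These ratios describe single animals and carry no replicate error.

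**Figure D3:**
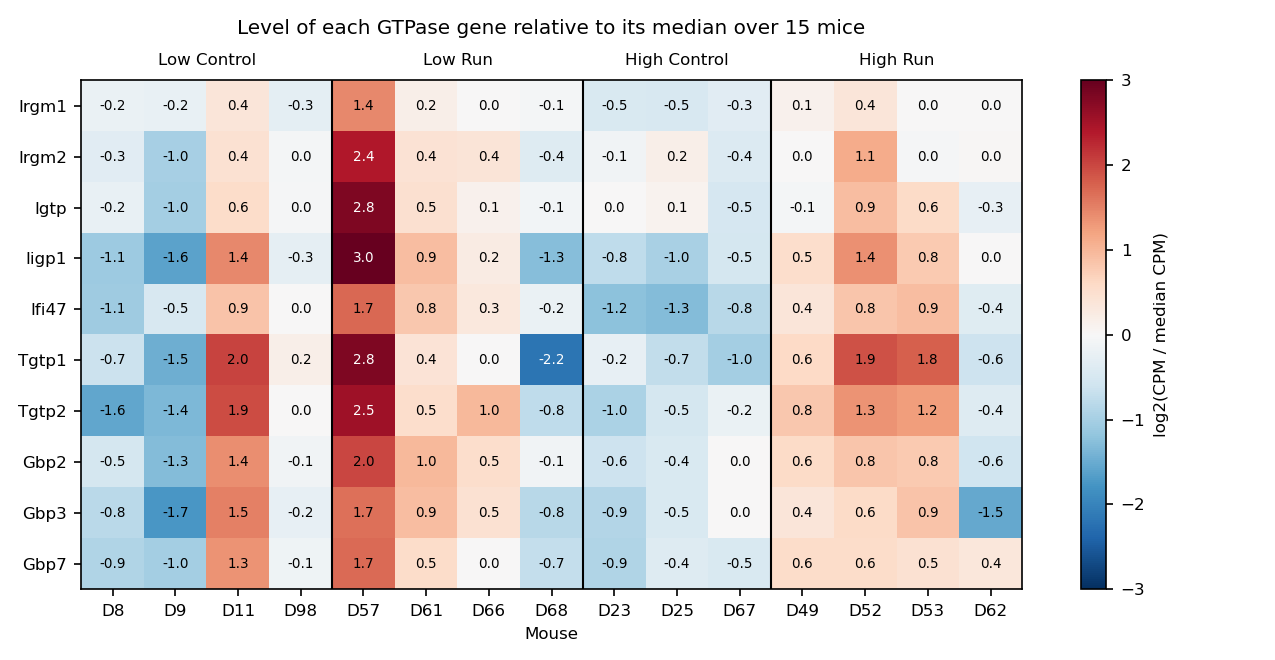
Log2 of the CPM of each GTPase gene in each mouse over that gene's median of all 15 mice, with mice in columns by group. D57, D61, D11 and D52 are above the median for 10 of 10 genes, and D68, D8 and D9 are below it for 10 of 10.

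The comparison of High Run with High Control mice asks the same question in mice with more frailty markers. It is given as a description, since members were chosen on it. The log2 fold change was above 0 for all 10 members, with a median of 0.94 beside 0.05 over all genes tested. All 4 High Run mice stood above all 3 High Control mice for Ifi47, Iigp1, Irgm1 and Gbp7, a separation found for 3.47% of all genes. Ifi47 was at 1.08, 1.03 and 1.44 CPM in D23, D25 and D67 and at 3.29, 4.52, 4.83 and 1.98 CPM in D49, D52, D53 and D62, a log2 fold change of 1.63 ± 0.50 (SE, n = 4 and 3). Iigp1 was at 6.84, 5.91 and 8.09 CPM in High Control and at 16.8, 30.2, 20.1 and 11.6 CPM in High Run mice (1.50 ± 0.82). In both genes D62 was the High Run mouse nearest to the controls.

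Gbp7 separated the groups with little spread, at 4.87, 6.87 and 6.61 CPM in High Control and at 13.3, 13.3, 12.4 and 11.5 CPM in High Run mice, a log2 fold change of 1.05 ± 0.55. The SE uses a spread shared by all 4 groups, and the SD of Gbp7 was 1.09 and 0.852 CPM in these groups beside 8.75 and 10.52 CPM in Low Control and Low Run mice. Irgm1 was at 17.2, 16.9 and 18.5 CPM in High Control and at 25.6, 30.2, 23.7 and 23.6 CPM in High Run mice (0.56 ± 0.30). The other regulatory genes overlapped between the High groups. Igtp had 17.96, 19.4 and 12.6 CPM in High Control and 17.2, 34.3, 26.9 and 15.1 CPM in High Run mice (0.49 ± 0.58), and Irgm2 had 20.3, 24.5 and 16.5 CPM and 21.8, 47.2, 21.3 and 22.3 CPM (0.46 ± 0.53). Mouse D52 alone lay above the High Control range of Irgm2. Gbp2 and Gbp3 had log2 fold changes of 0.83 ± 0.57 and 0.71 ± 0.69, and Tgtp1 and Tgtp2 of 1.84 ± 0.99 and 1.42 ± 0.82. In D62, Gbp3 (2.52 CPM) was below the lowest High Control mouse (3.98 CPM), and D62 was the lowest High Run mouse for 9 of the 10 members.

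**Figure D4:**
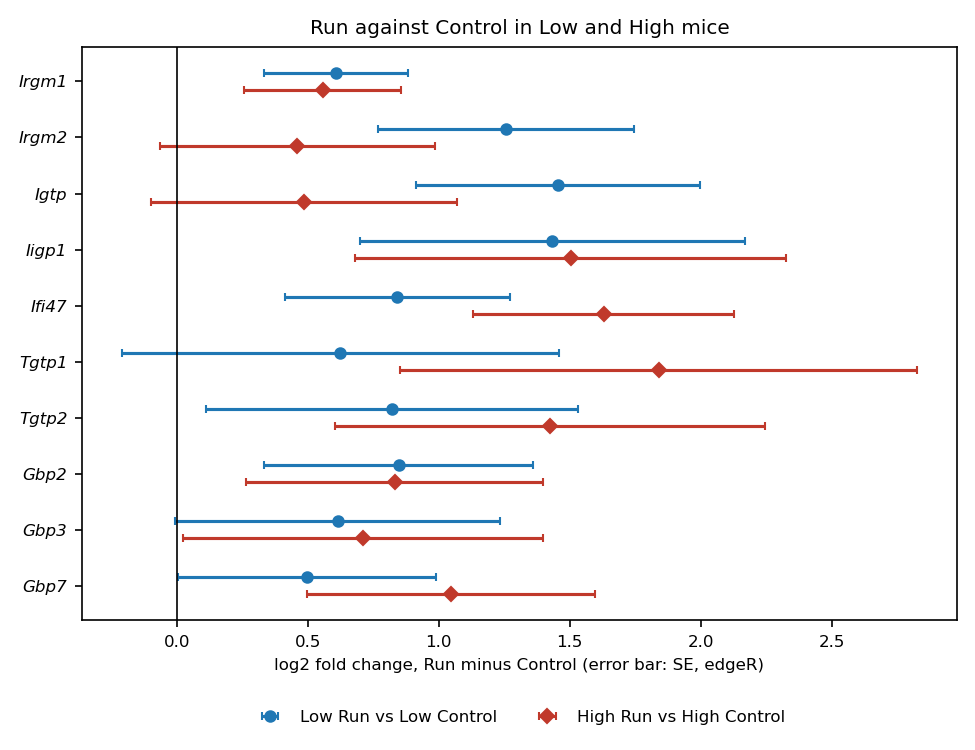
Log2 fold change of Run over Control for each GTPase gene in Low (circles) and High mice (diamonds), with the SE from edgeR as error bars. All values lie above 0, and the Low and High error bars overlap for each of the 10 genes.

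The Frailty × Run interaction, which is the High log2 fold change minus the Low one, ran from -0.97 ± 0.79 for Igtp and -0.80 ± 0.71 for Irgm2 to 0.79 ± 0.65 for Ifi47 and 1.22 ± 1.28 for Tgtp1. It is given with no test because the High values chose members. Without D57 the interactions of Igtp and Irgm2 were 0.21 and 0.13, and without both D57 and D11 they were -0.08 and -0.13. For Iigp1 the interaction was 0.07 with all mice, 1.40 without D57 and 0.41 without both.

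Between the control groups, the means of 9 of the 10 members were lower in High Control than in Low Control mice, and the median log2 fold change was -0.66. Only Irgm1 had every High Control mouse below every Low Control mouse, a separation found in the lower direction for 5.27% of all genes. Without D11 this median was 0.17. Between the running groups, all 10 members had a lower mean in High Run than in Low Run mice, with a median log2 fold change of -0.45 that became 0.18 without D57 and 0.03 with voom. The 2 differences between frailty groups thus changed sign with 1 Low mouse each, and they share no mouse with each other.

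The members moved together from mouse to mouse. After the mean of its group was subtracted from each log2 CPM value, the correlation between 2 members over the 15 mice had a median Pearson's r of 0.88 over the 45 pairs, with a range of 0.62 to 0.98. Without D11 and D57 the median was 0.70 and the range 0.31 to 0.98. These correlations are descriptions, as the values come from the same libraries, and the Tgtp and the Igtp and Irgm2 pairs also share sequence or exons.

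Of the 16910 genes outside the members, the 10 with the most similar deviations included, in order of likeness, Gm12250, Gm4951, Cd274, Bst2, Gbp4, Tapbpl, Exoc3l4, Oas1b and Batf2. The mean r with the 10 members was 0.91 for Gm12250, 0.89 for Gm4951 and 0.88 for Cd274, which encodes the checkpoint ligand PD-L1, and 0.84 for Batf2 in the tenth place. The median over all genes outside the members was 0.00, and 5% of them were above 0.53. Gm12250 and Gm4951 are themselves IRG genes. The rank depended on the 2 far mice, since only 1 of these 10 genes was still among the 10 most similar without D11 and D57. The value of Gbp4 was then 0.79 and that of Bst2 0.60.

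A list of 19 other genes held IRG and GBP genes and a few related GTPase genes such as Gvin1 and Gm4070. Of these 19, 17 were tested, and 14 had a log2 fold change above 0 in Low mice and 17 in High mice, with medians of 0.60 and 0.95. In Low mice 6 had an unadjusted p under 0.05, all higher, beside 5.92% of all genes that were higher at that level. An FDR of 0.1 was passed by 0 of the 17 (edgeR, smallest adjusted p = 0.358). Of the 6 at the unadjusted level, each is named here. These were Gm12185 (3.09 ± 0.96), Gm4841 (2.76 ± 0.91), Gm12250 (2.21 ± 1.01), Gbp8 (2.05 ± 0.73), Gbp11 (1.80 ± 0.62) and F830016B08Rik (1.65 ± 0.54). Gbp11 passed the count filter through Run mice alone. Gbp8 and Gm12250 also needed Run mice to pass, as D11 was the only Control mouse above the filter's level for either gene. The direction of Gbp11, Gbp8 and Gm12250 is thus not independent of the filter. Outside the 6, Gvin1, Gm5431 and Gm4070 needed Run mice as well. In the High comparison 0 of the 17 had an unadjusted p under 0.05, beside 3.28% of all genes that were higher at that level. Gm4841 reached 200 CPM in D57 against 0.828 to 25.4 CPM in Low Control mice, and Gm12185 reached 22.0 CPM in D57 and was at 0 counts in Low Control mouse D8. For the remaining tested genes the Low log2 fold changes were 0.97 ± 0.72 for Gvin1, 0.90 ± 0.64 for Gbp5, 0.60 ± 0.39 for Gm5431, 0.45 ± 0.57 for Gm4951, 0.43 ± 0.79 for Gbp10, 0.09 ± 0.70 for Gbp4, 0.09 ± 0.54 for Gbp6, 0.06 ± 0.37 for 9930111J21Rik2, -0.10 ± 0.38 for Gbp9, -0.32 ± 0.19 for Irgq and -0.42 ± 0.73 for Gm4070.

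Upstream of the GTPases, transcripts of the interferon genes Ifng and Ifnb1 were close to absent, and interferon protein was not measured. Ifng had 13 counts over all 15 mice, 6 of them in High Run mouse D49, and Ifnb1 had 0 counts, so neither was tested. The receptor genes Ifngr1 (35.4 to 61.3 CPM) and Ifngr2 (42.2 to 106 CPM) were present in every mouse. Socs1, the feedback inhibitor of the receptor kinases, separated the Low groups, at 0.0414 to 0.840 CPM in Low Control and 1.00 to 1.98 CPM in Low Run mice (1.92 ± 0.64, edgeR adjusted p = 0.358). Such a separation was found for 3.35% of all genes. Of the 15 signalling genes tested, 2 were higher at an unadjusted p under 0.05 (edgeR) in Low mice, Socs1 among them, beside 5.92% of all genes. Irf1, an activator of GTPase promoters, had log2 fold changes of 0.39 ± 0.30 in Low and 0.22 ± 0.32 in High mice, and Irf8 of 0.34 ± 0.23 and 0.29 ± 0.25. Those of Jak1 were -0.23 ± 0.18 and -0.16 ± 0.19, and those of Jak2 -0.06 ± 0.27 and -0.50 ± 0.29.

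Of 20 other genes that interferon gamma induces, all tested in the Low comparison, 18 had a log2 fold change above 0 (median 0.57). An unadjusted p under 0.05 (edgeR) was found for 10, all higher, beside 5.92% of all genes that were higher at that level. An FDR of 0.1 was passed by 0, and the Low groups overlapped for all 20. Serpina3g of this list was at or below 0.270 CPM in every Control mouse. It passed the count filter through Run mice alone, so its direction is not independent of the filter. Cxcl9, a chemokine for T cells, had the largest value at 2.97 ± 0.68 (edgeR adjusted p = 0.358), with 11.1 CPM in both D57 and D61 and between 0.455 and 1.37 CPM in Low Control mice. Cxcl10 (1.34 ± 0.44), Ciita (1.66 ± 0.71), the activator of MHC class II genes, and the immunoproteasome subunits Psmb8 (0.95 ± 0.37) and Psmb9 (0.99 ± 0.38) were among the 10. Nlrc5, the activator of MHC class I genes, Tap1, the peptide transporter, and Cd274 were not, at 0.57 ± 0.46, 0.88 ± 0.42 and 0.45 ± 0.62. In the High comparison 5 of the 20 had an unadjusted p under 0.05, beside 3.28% of all genes that were higher at that level. They were Nlrc5 (1.36 ± 0.52), Tap1 (1.10 ± 0.46), Psmb9 (0.92 ± 0.42), Psmb8 (0.89 ± 0.40) and Tap2 (0.48 ± 0.20), with edgeR adjusted p-values of 0.956. Nlrc5 and Tap1 were among the study's own calls in these mice, so their direction is not independent evidence.

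Among the genes used as signs of type I interferon, some had their highest value in mice other than D57. Of 24 tested, 0 had an unadjusted p under 0.05 in Low mice, and 3 had one in High mice. The shares of all genes higher at that level were 5.92% in Low and 3.28% in High mice. The 3 were Isg20 (2.21 ± 0.57), Isg15 (1.80 ± 0.70) and Rsad2 (1.53 ± 0.55), with edgeR adjusted p-values of 0.956. Isg20 was also among the study's calls. Rsad2, the antiviral enzyme viperin, was highest in High Run mouse D53 at 51.4 CPM and in Low Control mouse D11 at 46.1 CPM, and stood at 14.5 CPM in D57. Isg15 was likewise highest in D53 (8.53 CPM) and D11 (4.86 CPM), and D57 had 3.28 CPM. D57 was the highest mouse for 10 of 10 members, 12 of 20 interferon gamma targets and 9 of 24 genes of the type I list, and D11 for 0, 2 and 7 of them. Ifit1 (0.60 ± 0.34 in Low and 0.70 ± 0.37 in High mice) and Ifit3 (0.81 ± 0.48 and 0.51 ± 0.52) did not pass either threshold. D57 was the highest mouse for both, at 6.98 CPM for Ifit1 and 13.8 CPM for Ifit3.

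GBP and IRG proteins work with the autophagy conjugation machinery and with inflammasome components. Of 17 such genes, 4 had an unadjusted p under 0.05 in Low mice, beside 5.92% of all genes that were higher at that level. They were Gsdmd (0.65 ± 0.19), Casp4 (0.58 ± 0.22), Casp1 (0.99 ± 0.37) and Pycard (1.11 ± 0.48), all with an edgeR adjusted p of 0.358 or 0.359. Gsdmd, the pore-forming protein cut by inflammatory caspases, stood higher in all 4 Low Run mice than in any Low Control mouse, as did 3.35% of all genes. The conjugation genes Atg5 and Gabarapl2 had log2 fold changes of 0.08 ± 0.14 and 0.06 ± 0.14 in Low and -0.13 ± 0.15 and 0.01 ± 0.15 in High mice. Lgals3, which encodes a lectin that marks damaged vacuoles and is a gene the study called, was 1.46 ± 0.32 in High mice (edgeR adjusted p = 0.956). It separated the High groups, as 3.47% of all genes did.

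**Figure D5:**
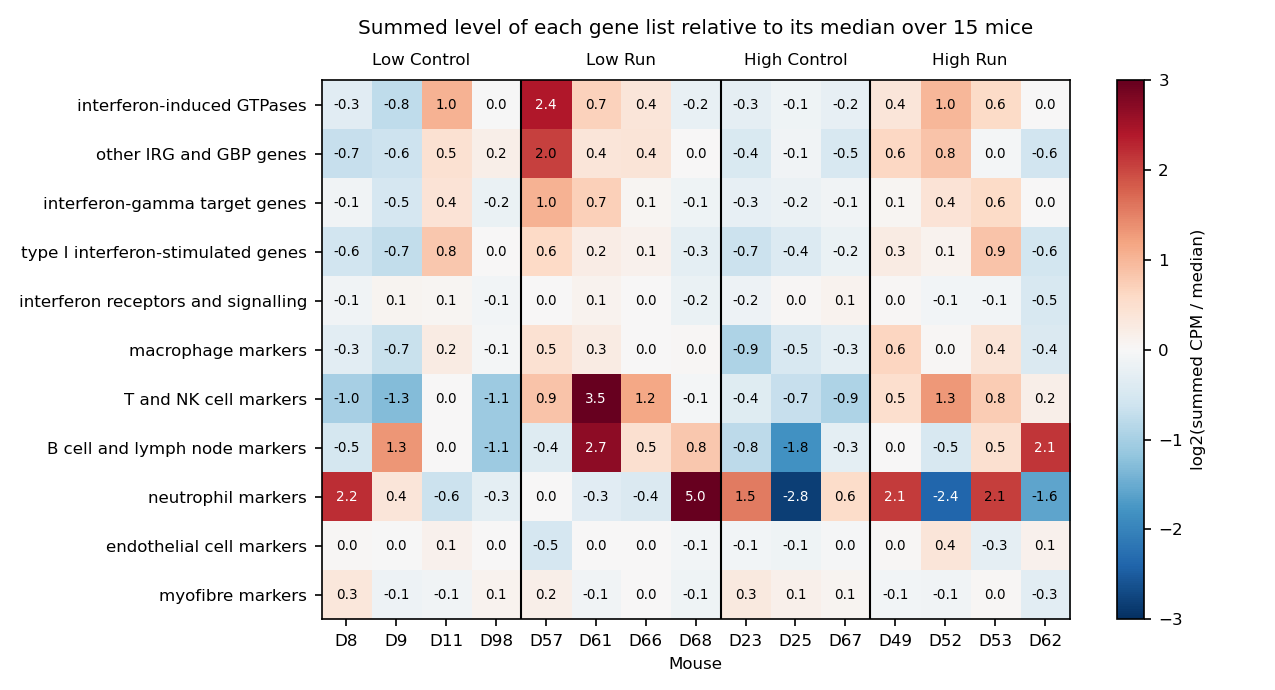
Log2 of the summed CPM of each gene list in each mouse over the median of that list over 15 mice, with mice in columns by group. D57 is highest in the first 3 lists, whereas T and NK cell and B cell markers peak in D61 and neutrophil markers in D68.

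Markers of immune cells moved with part of these values. The 10 macrophage markers, none at 0 in any mouse, summed to 132 to 248 CPM in Low Control, 210 to 290 CPM in Low Run, 109.9 to 171 CPM in High Control and 156 to 329 CPM in High Run mice. D57 and D11 had the highest sums of their groups. In High Control mice the sum was highest in D67, as were 6 of the 10 members. In High Run mice it was highest in D49, whereas 7 of the 10 members were highest in D52. Mpeg1, a macrophage pore protein and a gene the study called, had log2 fold changes of 0.62 ± 0.25 in Low and 1.31 ± 0.29 in High mice, and Adgre1, the F4/80 antigen, of 0.23 ± 0.39 and 0.88 ± 0.43. Of the 10 macrophage markers, the Low comparison had 3 higher and 1 lower at an unadjusted p under 0.05 (edgeR), and the High comparison had 6 higher. The shares of all genes higher at that level were 5.92% in the Low and 3.28% in the High comparison. The 12 T and NK cell markers summed to 0.704 to 1.72 CPM in Low Control, 1.65 to 20.1 CPM in Low Run, 0.910 to 1.35 CPM in High Control and 1.95 to 4.28 CPM in High Run mice. Only 6 of the 12 passed the count filter, and Cd3e, Cd3g, Trac, Nkg7 and Gzmb did so through Run mice alone. All 6 were higher in Low Run mice at an unadjusted p under 0.05 (edgeR). The filter favoured markers high in Run mice, so this direction is not independent of it. The highest mouse for these markers was D61, with Cd3e at 3.17 CPM, and not D57, where Cd3e was at 0.504 CPM. Cd8a had 93 counts in all and was not tested. The B cell and lymph node markers were also highest in D61, at 31.9 CPM. Cd79a was at 5.22 CPM there and at 0.168 CPM in D57. The lymph node genes Ccl19 and Ccl21a were at 0 counts in every mouse. Glycam1 of the same list had 11 of its 15 counts in D61, and Cr2 had 10 of its 18. Cxcl13 was highest in D62 and Fcer2a in D66. Whether any library held lymph node tissue was not tested. Neutrophil markers reached 411 CPM in D68, the mouse with the lowest Low Run value for 10 of 10 members. Of myofibre and endothelial genes, Ckm had log2 fold changes of 0.14 ± 0.18 and -0.30 ± 0.19 and Pecam1 of -0.24 ± 0.16 and 0.19 ± 0.17 for Run over Control in Low mice and then in High mice. The part of these cell types in the GTPase values was not tested.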

How the data were processed

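Gastrocnemius RNA of 15 mice was analyzed, and groups were taken from the labels. The authors aligned polyA RNA reads with STAR 2.7.9a to mm10 and deposited counts of uniquely aligned proper pairs per Ensembl gene from featureCounts, without normalization. They also deposited a variance-stabilized table on a log2-like scale, used here only as an alternative. The analysis of the counts used edgeR 4.0.16 in R 4.3.3 (filterByExpr, TMM, quasi-likelihood F-test on all 15 mice with 1 mean per group, Benjamini-Hochberg FDR of 0.1 over 16920 genes), limma 3.58.1 and DESeq2 1.42.0. The test was also run on simulated counts with changes planted in High Run mice only. Its power in the Low comparison was therefore not checked. Log2 fold changes are given with SE. CPM used TMM-scaled library sizes.

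The members and all gene lists were chosen with earlier results of these data known. The test is therefore reported for members only in Low mice, and their other values are descriptions. The named genes were the members, fixed genes of each list, and the 10 genes with the most similar deviations. An item of these lists is not reported here. Gsdmd, Casp1, Pycard, Tap2, Serpina3g, Glycam1, Cr2, Cxcl13 and Fcer2a were named after their values were seen. Symbols, positions and exon lengths came from GENCODE M21 (the authors counted on Ensembl build 100), and promoters from RefSeq, both on GRCm38. Iigp1 has no position or sequence given here. Totals of 19395125 to 30699216 counts per mouse make counting error small except for genes near 10 counts, such as Tgtp1. Each library is 1 mouse, and no sequencing batch is given. Alternatives were RLE and upper-quartile normalization, DESeq2, voom with quality weights, other count filters, only the groups compared, an FDR of 0.05 and leaving out mice.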

Additional observations from a re-analysis of the deposited data

Results flagged for a closer look

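In groups of 4 mice, a value was marked when its gap to the nearest other mouse was a larger part of the group's range than Dixon's 95% critical value, and 6 of the 30 member and group combinations met this. For normally distributed values, chance alone marks about 1 group in 20. The gaps were taken on CPM and not on a log scale, which favours marks on high values, and log2 values were not checked. The members also move together, so the 6 are not independent. In Low Run mice, D57 stood apart for Igtp at 125 CPM (nearest mouse 25.0), Irgm2 at 114 CPM (29.4), Irgm1 at 63.9 CPM (26.5) and Tgtp1 at 4.75 CPM (0.901). In Low Control mice, D11 stood apart for Irgm1 at 30.0 CPM (20.6). In High Run mice, D52 stood apart for Irgm2 at 47.2 CPM (22.3).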

How the results depend on the processing

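In Low mice no member passed the FDR threshold under any alternative run. The number of all genes called, which was 0 in every comparison with edgeR, became 10 in the Low and 15 in the High comparison with DESeq2, and 45 in the High comparison with voom and quality weights. With no count filter it became 86 and 19 in these, 4 for the interaction and 6 between the Run groups. The cause was not tested. With voom, the Low median of the members was 0.50 in place of 0.83 (Igtp 0.51, Iigp1 0.54) and Tgtp1 turned to -0.30, while the interaction median was 0.73 in place of 0.08 and that of High Run against Low Run 0.03 in place of -0.45. Leaving out each mouse gave Low log2 fold changes from -0.83 to 1.72 for Tgtp1, from -0.049 to 2.06 for Tgtp2 and from -0.13 to 1.28 for Gbp7, the lowest without D57 and the highest without D11, and the other 7 members stayed above 0. The High median stayed between 0.80 and 1.07. Tgtp1 had under 10 counts in some mice and gave no value with that filter. Of the 10 most similar genes, 9 were shared with variance-stabilized values and 5 without subtracting group means. No paired analysis was possible because the replicate numbers are those of single animals and no 2 groups share one.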
